A study of Homo sapiens with 4 samples.

Results

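Thrombomodulin, tissue factor and urokinase stand at the cell surface where blood clotting and the dissolution of fibrin are controlled. The 9 genes taken for this system by name were THBD, F3, PROCR, F2R, F2RL1, TFPI, TFPI2, PLAU and PLAUR. Every probe set that the array's annotation gives to one of them alone was used, which made 19 probe sets of 8 genes, among 19775 genes with a named probe set. F2RL1, the protease-activated receptor PAR2, had no probe set named in the annotation used and was not analysed here. All 19 probe sets reached the level at which features were tested. The set was selected on function and with measured values in view, namely the higher signals of THBD and PLAUR under rhSTIP1. Differences between rhSTIP1 and control arrays are therefore given for these genes as a description, with standard errors and without p-values.

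The cells were SKOV3, an established human ovarian carcinoma line, in 2 groups of 2 arrays. Controls, replicates 1 and 2, received no rhSTIP1, and the rhSTIP1 group, replicates 1 and 2, was treated with it. Here rhSTIP1 was taken to mean the recombinant human protein STIP1, a cochaperone of HSP70 and HSP90 that ovarian carcinoma cells also secrete, and the series title places the experiment in a pathway spelled SAMD1/5, read as SMAD1/5. The labels state neither dose nor duration. They also do not say whether replicate arrays stem from different cultures, so any p-value reflects array-to-array spread that may be only technical.

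Tissue factor, encoded by F3, binds coagulation factor VII on the cell surface and starts the clotting cascade that ends in thrombin. TFPI blocks that first step. Thrombin cleaves the receptor PAR1, encoded by F2R, and once bound to thrombomodulin it instead activates protein C, which PROCR presents to the complex. Urokinase, encoded by PLAU, converts plasminogen to plasmin while held by its receptor PLAUR, and TFPI2 inhibits plasmin. Carcinoma cells commonly express tissue factor and the urokinase system, which are studied for their part in tumour-associated clotting and in invasion.

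Signals are MAS5 signals on a linear scale, each array scaled to a common target, and levels of different probe sets cannot be set against each other. The arrays had median signals between 66.0 and 79.2. For ACTB, the ratio of 3′ to 5′ probe signal, a measure that increases with RNA degradation, was 8.79 on rhSTIP1 array 2 and between 2.45 and 2.74 on the other 3 arrays. The GAPDH ratio ran from 0.987 to 1.32, and its highest value was also on rhSTIP1 array 2. Values without rhSTIP1 array 2 are therefore given for THBD, TFPI2, PLAUR, F3, TFPI and FOSL1. Of 10 epithelial and ovarian carcinoma markers 9 reached the tested level, MUC16 being the one that did not, and their summed signal was 52075 and 51057 in controls and 55791 and 56649 with rhSTIP1. Because THBD and PROCR are also known as endothelial genes, endothelial markers were examined. Only PECAM1 of 10 reached the tested level, CDH5, VWF, TEK, TIE1, KDR, ESAM, CLDN5, EMCN and ROBO4 were all under it, and the 10 summed to 322 and 373 in controls and to 460.4 and 374 with rhSTIP1. Of the monocyte list 1 of 8 markers with a probe set reached that level (ITGAM), of the platelet list 3 of 8 (ITGA2B, GP1BA and GP6) and of the fibroblast list 4 of 9 (COL1A1, COL1A2, DCN and PDGFRA). Their summed signals ran from 246 to 248 in controls and from 245 to 278 with rhSTIP1 for monocytes, from 354 to 441 and from 398 to 415 for platelets, and from 557 to 715 and from 567 to 725 for fibroblasts. No marker of these 5 lists was listed at a signal of 0, and none that reached the tested level was separated by the rule given next.

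A gene was called separated where both arrays of one group lay above both of the other and the group means of log2(signal + 16) differed by at least 1.5-fold. Of the 8 measured genes 3, THBD, TFPI2 and PLAUR, were separated and higher with rhSTIP1, and 0 were separated and lower. Over all 12296 genes tested, 1.9% were separated and higher and 3.79% lower. Counting any size of difference, these were also the only 3 of the 8 whose groups did not overlap, 3 higher and 0 lower, against 14% and 14.9% of all genes. The choice of the genes used the same comparison, so nothing is read from these shares. The median log2 difference of the 8 genes was 0.47, against 0.02 over all genes tested. In bulk RNA, more cells with a transcript and more transcript per cell cannot be told apart. Without the replicate number as a block, no gene on the arrays passed limma's test at an adjusted p of 0.05 (0 of 12296). In the same fit 452 had an unadjusted p under 0.05. Calls with that block differ and are given at the end.

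**Figure D1:**
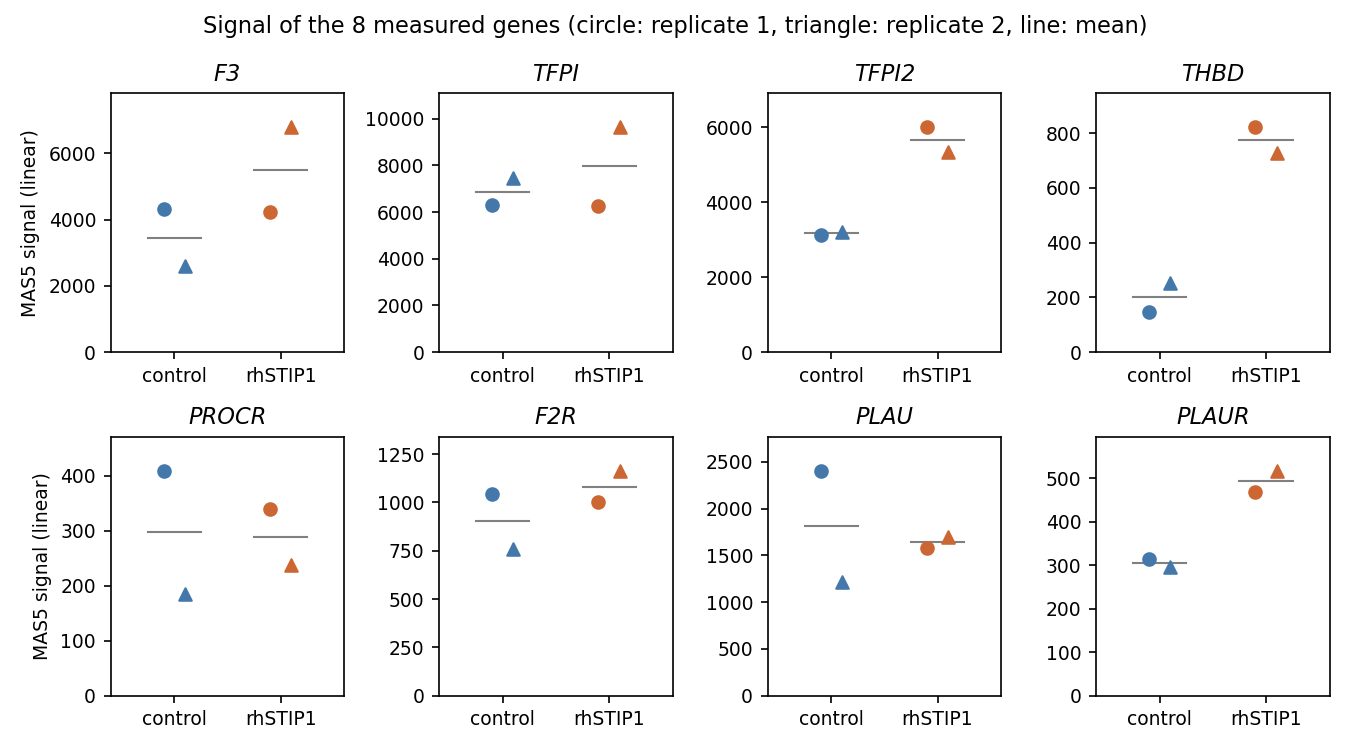
MAS5 signal (linear, from 0) of the 8 measured genes in control (blue) and rhSTIP1 (orange) arrays, each gene shown by the brightest of its probe sets. Circles are replicate 1, triangles replicate 2 and lines group means of 2 arrays. THBD, TFPI2 and PLAUR show both rhSTIP1 arrays above both controls, whereas the groups overlap for the other 5.

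Thrombomodulin had the widest difference of the system. Its brightest probe set, 203887_s_at, had signals of 146 and 253 in controls 1 and 2 and of 821 and 725 with rhSTIP1. Both rhSTIP1 arrays lay far above both controls, and the 2 controls were further apart on the log2 scale than the 2 rhSTIP1 arrays. The log2 difference was 1.92 ± 0.31 (standard error from limma, 2 arrays a group), a 3.77-fold higher level, and it was the 8th highest of the 12296 genes tested. Leaving out single arrays gave between 1.55, without control 1, and 2.28, without control 2. Without rhSTIP1 array 2, the array with the high ACTB ratio, it was 2.00.

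The other probe sets of THBD showed the same order of groups. Probe set 203888_at had signals of 97.0 and 165 in controls and of 514 and 395 with rhSTIP1, a log2 difference of 1.71 ± 0.34. The dim probe set 237252_at had 4.20 and 62.3 in controls, both under the level of 69.4 at which features were tested, and 121 and 102 with rhSTIP1. All 3 were separated, with control 1 below control 2 in each, but 237252_at reached the tested level only through the rhSTIP1 arrays. Of all 19 probe sets 7 were separated and higher and 0 lower, against 2.07% and 4.35% of the 27307 probe sets tested, and without 237252_at it was 6 of 18. As with the genes, nothing is read from these shares. Probe sets of 1 gene read transcripts of the same samples and are not replicates.

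The partners of thrombomodulin at the cell surface overlapped between groups. PROCR, the endothelial protein C receptor, had signals of 409 and 185 in controls and of 339.5 and 238 with rhSTIP1. Control 1 was the highest of the 4 and control 2 the lowest, so both rhSTIP1 arrays lay between the controls and the log2 difference was 0.04 ± 0.40. Its sign turned to −0.50 without control 2 and to −0.20 without rhSTIP1 array 1. F2R, the thrombin receptor PAR1, had 1044 and 760.4 in controls and 1001 and 1164 with rhSTIP1 on probe set 203989_x_at. The groups overlapped, with a log2 difference of 0.27 ± 0.26, and they also did on the dimmer 1569642_at, at 0.16 ± 0.37. Both THBD and PROCR act in the protein C pathway, and their log2 differences of 1.92 and 0.04 stand side by side here without a test of one against the other.

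Tissue factor was strongly detected but did not separate. F3 had signals of 4322 and 2590.0 in controls and of 4235 and 6792 with rhSTIP1. Control 1 and rhSTIP1 array 1 were nearly level, and the mean difference of 0.68 ± 0.33 on the log2 scale came from a low control 2 and a high rhSTIP1 array 2. That difference was the 226th highest of all genes tested, close in size to that of PLAUR, which did separate. Without rhSTIP1 array 2 it was 0.34, and without control 2 it was 0.31. F3 became separated when control 1 (1.05) or rhSTIP1 array 1 (1.02) was left out. Median centring, which moves F3's overlapping arrays just apart, also made it separated, at 0.72.

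The 2 inhibitors named for tissue factor differed in pattern. TFPI2, a Kunitz-type inhibitor that acts on plasmin and is laid down in the extracellular matrix, had signals of 3132 and 3206 in controls and of 6005 and 5338 with rhSTIP1 on probe set 209278_s_at. The arrays of each group were close together and the groups were clearly apart. Its log2 difference was 0.83 ± 0.21, or 1.78-fold, and ran from 0.75 to 0.92 with 1 array left out, the higher value being the one without rhSTIP1 array 2. The second probe set, 209277_at, had 1088 and 860.3 in controls and 1885 and 2343 with rhSTIP1, at 1.11 ± 0.27. Both probe sets of TFPI2 were thus separated and higher.

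TFPI itself, the inhibitor of the complex of tissue factor and factor VII, overlapped between groups on all 5 of its probe sets. The one with the highest signal, 213258_at, had 6301 and 7455 in controls and 6273 and 9634 with rhSTIP1, a log2 difference of 0.18 ± 0.25. Array 2 was above array 1 in both groups. The same order of arrays was seen on 210664_s_at, with 1969 and 3000.5 in controls and 1676 and 3099 with rhSTIP1, and on 209676_at and 210665_at. Only 214378_at departed from it, with 351 in control 1 and 204 in control 2. The 5 log2 differences ran from −0.31 ± 0.39 for 214378_at to 0.46 ± 0.34 for 210665_at, and without rhSTIP1 array 2 that of 213258_at was −0.13.

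In the urokinase pair the receptor was separated and the protease was not. PLAUR, the glycolipid-anchored urokinase receptor, had signals of 314 and 296 in controls and of 468 and 518 with rhSTIP1 on 210845_s_at. Both groups were tight and did not overlap. The log2 difference was 0.66 ± 0.25, a 1.58-fold higher level just beyond the 1.5-fold limit, and single arrays left out gave 0.59 (rhSTIP1 array 2) to 0.73 (rhSTIP1 array 1). On 211924_s_at the signals were 234 and 195 in controls and 356 and 344 with rhSTIP1, at 0.67 ± 0.27. The third PLAUR probe set, 214866_at, was dimmer and overlapped between groups, with 161 and 84.9 in controls and 164 and 122 with rhSTIP1, at 0.24 ± 0.39. PLAUR was no longer separated where all 3 probe sets were averaged (0.52) or where 214866_at stood for the gene (0.24).

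PLAU, which encodes urokinase, had signals of 2405 and 1219.8 in controls and of 1583 and 1694 with rhSTIP1 on 205479_s_at. The rhSTIP1 arrays lay between the 2 controls, and the log2 difference was −0.07 ± 0.34. Its sign turned to 0.42 without control 1. On the second probe set, 211668_s_at, the signals were 633 and 635 in controls and 477 and 487 with rhSTIP1. Here the arrays of each group nearly coincided and both rhSTIP1 arrays were lower, but by −0.39 ± 0.25, short of the 1.5-fold limit. The 2 PLAU probe sets therefore disagreed on whether the groups overlap. Of the 19 probe sets, 211668_s_at was the one with both rhSTIP1 arrays below both controls, against 15.4% of all probe sets tested. Both rhSTIP1 arrays were above both controls on 7, against 12.8%. The 7 include 237252_at of THBD, which reached the tested level only through the rhSTIP1 arrays. The choice of the genes used the same comparison, so nothing is read from these shares.

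**Figure D2:**
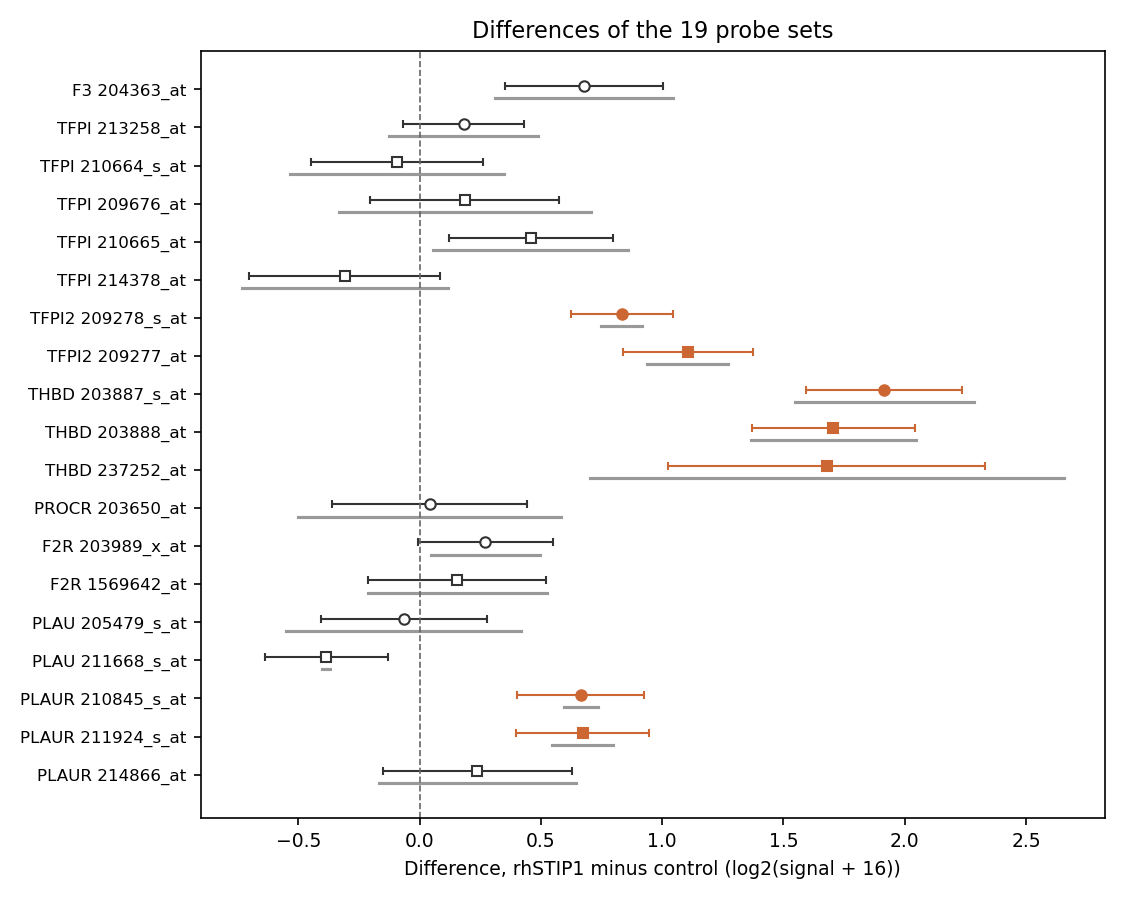
Difference between rhSTIP1 and control means of log2(signal + 16) for the 19 probe sets. Points carry standard errors from limma, circles mark the probe set that stands for its gene and squares the others, filled orange points are separated by at least 1.5-fold, and grey bars span the values with 1 array left out. The 3 THBD probe sets lie at 1.68 to 1.92, both TFPI2 sets and 2 of 3 PLAUR sets are also separated, and the TFPI, PROCR, F2R and PLAU sets lie between −0.39 and 0.46.

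Differences between arrays of the same group were not used in choosing these genes. Between the 2 controls the median absolute log2 difference of the 8 genes was 0.59, against 0.28 over all genes tested. PROCR was lower in control 2 than in control 1 by −1.08, PLAU by −0.97 and F3 by −0.74, whereas THBD was higher in control 2 by 0.74. TFPI2 and PLAUR hardly differed between controls, at 0.03 and −0.08. Between the 2 rhSTIP1 arrays the median was 0.19 for the 8 genes and 0.30 for all, with F3 (0.68) and TFPI (0.62) the furthest apart and both higher in array 2. Array 2 differed from array 1 in the same direction in both groups for 64.4% of all genes tested, and for 2 of the 8, PROCR (lower) and TFPI (higher).

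**Figure D3:**
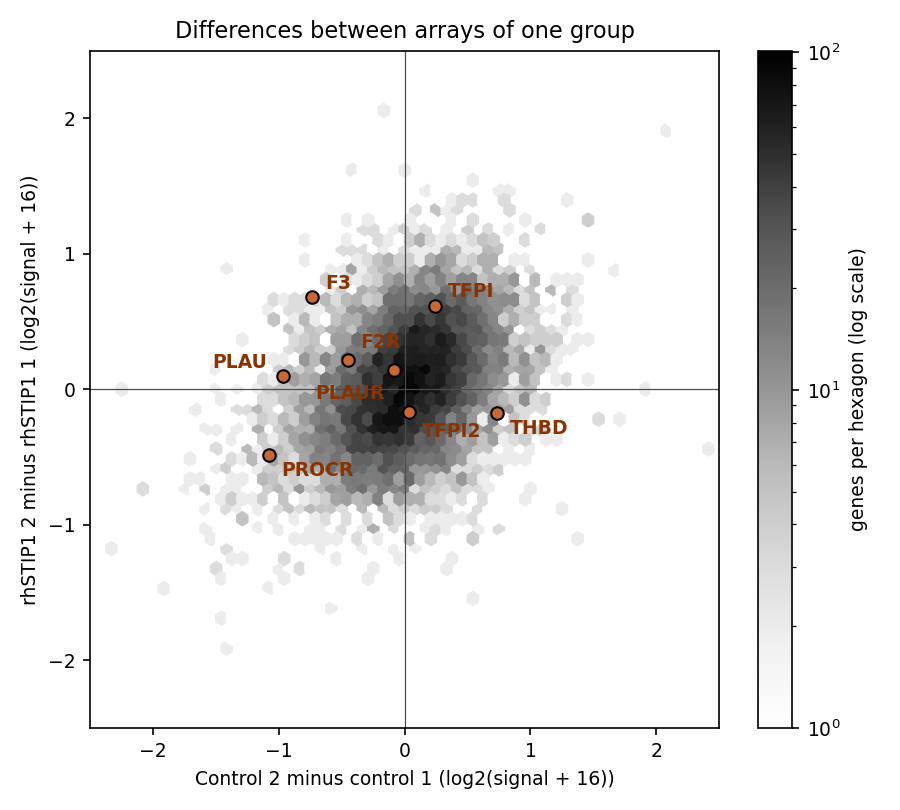
Log2 difference between replicate 2 and replicate 1 in controls (horizontal axis) and with rhSTIP1 (vertical axis), with the 12296 genes tested, apart from 38 beyond the axes, as grey hexagons shaded by number on a log scale and the 8 genes as orange points. PROCR, PLAU and F3 lie to the left, lower in control 2 by 0.74 to 1.08, and THBD to the right, while TFPI2 and PLAUR lie near the centre.

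RefSeq promoter sequences of build GRCh38.p14 were available for 7 of the 9 genes, without THBD and F2R, in 8 windows because PLAU has 2 starts. The 250 bases before each start were searched on both strands for 6 short motifs. The motif of AP-1, TGANTCA, occurred in the windows of F3, TFPI2 and PLAUR and in 6.57% of all 35116 windows of the same length. It had no match in those of PROCR, F2RL1, TFPI and PLAU. The 3 windows with a match are shown, 5′ to 3′ on the strand of the gene, with the AP-1 matches in capitals:
PLAUR (GRCh38.p14, chr19:43670170-43670419, minus strand): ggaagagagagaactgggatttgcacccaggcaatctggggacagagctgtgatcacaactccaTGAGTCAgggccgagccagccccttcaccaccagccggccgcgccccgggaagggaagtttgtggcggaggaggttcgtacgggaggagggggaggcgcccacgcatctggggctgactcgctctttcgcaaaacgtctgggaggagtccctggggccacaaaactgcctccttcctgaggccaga
TFPI2 (GRCh38.p14, chr7:93890754-93891003, minus strand): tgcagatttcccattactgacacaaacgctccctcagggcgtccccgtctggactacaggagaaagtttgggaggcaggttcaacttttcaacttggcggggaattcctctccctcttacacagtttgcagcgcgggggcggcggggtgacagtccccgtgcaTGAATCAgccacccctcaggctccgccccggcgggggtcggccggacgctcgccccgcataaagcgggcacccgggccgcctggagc
F3 (GRCh38.p14, chr1:94541760-94542009, minus strand): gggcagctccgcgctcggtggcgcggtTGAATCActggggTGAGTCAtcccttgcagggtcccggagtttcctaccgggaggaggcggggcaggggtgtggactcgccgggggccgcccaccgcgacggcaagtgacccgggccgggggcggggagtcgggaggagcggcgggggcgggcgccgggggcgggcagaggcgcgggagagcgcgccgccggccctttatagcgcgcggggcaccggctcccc
The PLAUR match, TGAGTCA, starts 186 bases before the start site and the TFPI2 match, TGAATCA, starts 87 before it. F3, whose arrays overlapped between groups, holds 2 matches, at 223 and 210 bases. THBD had no window to search, and whether a match goes with a difference between groups was not tested. A match is a run of letters and does not show that a factor binds there.

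The other motifs were common or scattered among these windows. The GC box GGGCGG was found in 42.6% of all windows and in those of F3, PROCR, F2RL1 and TFPI2 and the downstream window of PLAU. The GC-rich SMAD1/5 element GGCGCC, in 16.4% of all windows, occurred once in F3, once in PLAUR and 2 times in the downstream window of PLAU. CACCC, bound by KLF factors, was in 54.7% of all windows and in those of F3, TFPI2 and PLAUR, TGACG, the core of the CRE, was in 21.2% and in 0 of the 8, and TATAAA was in 10.7% and in those of F3 and PROCR. Overlaps between motifs were found at 3 places, 2 in F3 (an AP-1 match with CACCC, and a GC box with GGCGCC) and 1 in PLAU (a GC box with GGCGCC). TFPI and the upstream window of PLAU held no match to any of the 6.

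Around these genes, 95 others of the coagulation and urokinase systems and of their known regulators were followed in 6 lists, and 56 of them were tested. Of the 56, 5 were separated and higher and 1 was lower, together 10.7% against 5.69% of all genes tested, with a median log2 difference of 0.06. The lists were chosen with earlier results of these data known, so nothing is read from these shares. Of the 56 genes, 4 reached the tested level only through the rhSTIP1 arrays, and 2 of them, PROC and FOSB, were separated and higher. All genes tested passed the same filter, and how many of them did so through 1 group was not counted. The other 52 of the lists held 3 genes separated and higher and 1 lower, without a matching share over all genes. Without a block, none passed limma's test adjusted over all genes (0 of 56). FOSB and others, 4 in all, had an unadjusted p under 0.05 by limma, against 452 of all 12296 genes tested. Calls with the replicate number as a block differ and are given at the end. With 1 array left out, the separated counts ran from 5 to 11 higher (5 without control 1, 10 without control 2, 11 without rhSTIP1 array 1, 6 without rhSTIP1 array 2) and from 0 to 5 lower (0, 4, 2 and 5 in the same order). Those over all genes rose as well, from 234 higher and 466 lower to between 408 and 945 higher and between 654 and 1034 lower.

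Most soluble clotting factors were dim in these cells, and 5 of 19 genes of the coagulation and protein C list were tested, with a median difference of 0.03. PROC, the precursor of activated protein C, was the one of them that was separated. It had signals of 76.3 and 42.3 in controls and of 171 and 87.8 with rhSTIP1, close to the tested level, and a log2 difference of 0.93 ± 0.46 (limma, adjusted p = 0.9992). Without rhSTIP1 array 1 it was 0.50 and PROC was not separated. The cofactor PROS1 had −0.14 ± 0.26 and overlapped between groups. Among the other thrombin receptors and the G proteins they act through, 7 of 9 were tested and 0 were separated, with a median of 0.10. F2RL2, or PAR3, had signals of 288 and 163 in controls and of 156 and 350.2 with rhSTIP1, which overlap.

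Genes of plasminogen activation gave 4 tested members of 12 with a median of 0.38. PLAT, the tissue-type activator, had signals of 745 and 259 in controls and of 415 and 304 with rhSTIP1, at −0.30 ± 0.46, both rhSTIP1 arrays lying between the controls. Its sign turned to 0.44 without control 1, and without control 2 it was separated and lower, at −1.04. SERPINB8, a serine protease inhibitor, was separated, with 242 and 356 in controls and 514 and 423 with rhSTIP1, at 0.64 ± 0.29 (limma, adjusted p = 0.9992). It was not separated without control 1 (0.38) or without rhSTIP1 array 1 (0.50). SERPINE2, an inhibitor of thrombin and urokinase, had 0.25 ± 0.17. Of 19 partners of plasminogen and of the urokinase receptor, 15 were tested, 0 were separated and the median was −0.05. These included the plasminogen-binding annexin ANXA2 (−0.03 ± 0.18) and the integrin chains ITGB1 (0.06 ± 0.15) and ITGAV (0.15 ± 0.25). Of 17 pericellular proteases and their inhibitors 6 were tested and 0 were separated, with a median of 0.31.

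The transcription factors known to act on the promoters of these genes were all tested, 19 of 19, with a median of 0.04. Of them 21.1% were separated, against 5.69% of all genes tested. FOSB, among those separated, reached the tested level only through the rhSTIP1 arrays. The list was chosen with earlier results of these data known, so nothing is read from these shares. The AP-1 subunits FOSB, JUNB and FOSL1 were separated and higher. FOSB had signals of 18.6 and 6.12 in controls and of 444 and 137 with rhSTIP1, at 3.26 ± 0.59 (limma, adjusted p = 0.5466), and its controls were under the tested level. JUNB had 799 and 714 in controls and 1704 and 1522 with rhSTIP1, at 1.08 ± 0.23 (adjusted p = 0.702 by limma). FOSL1 had 506 and 361 in controls and 625 and 1548 with rhSTIP1, at 1.18 ± 0.42. Without rhSTIP1 array 2, the one with the high ACTB ratio, it was 0.53 and FOSL1 was no longer separated. The other AP-1 subunits of the list were not separated, FOSL2 at 0.39 ± 0.24, JUND at 0.20 ± 0.17, JUN at 0.15 ± 0.39 and FOS at −0.65 ± 0.82. KLF6, a zinc finger factor, was the one separated lower, with 7578 and 3685 in controls and 2893 and 3028 with rhSTIP1, at −0.83 ± 0.34. Without control 1 it was −0.31 and KLF6 was not separated. KLF5 had 3816 and 2671 in controls and 1826 and 2491 with rhSTIP1. It was lower without overlap, at −0.58 ± 0.28, but short of the 1.5-fold limit. KLF2 and KLF4, which drive THBD in endothelium, had −0.05 ± 0.28 and 0.22 ± 0.23, and the groups did not overlap for KLF4.

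**Figure D4:**
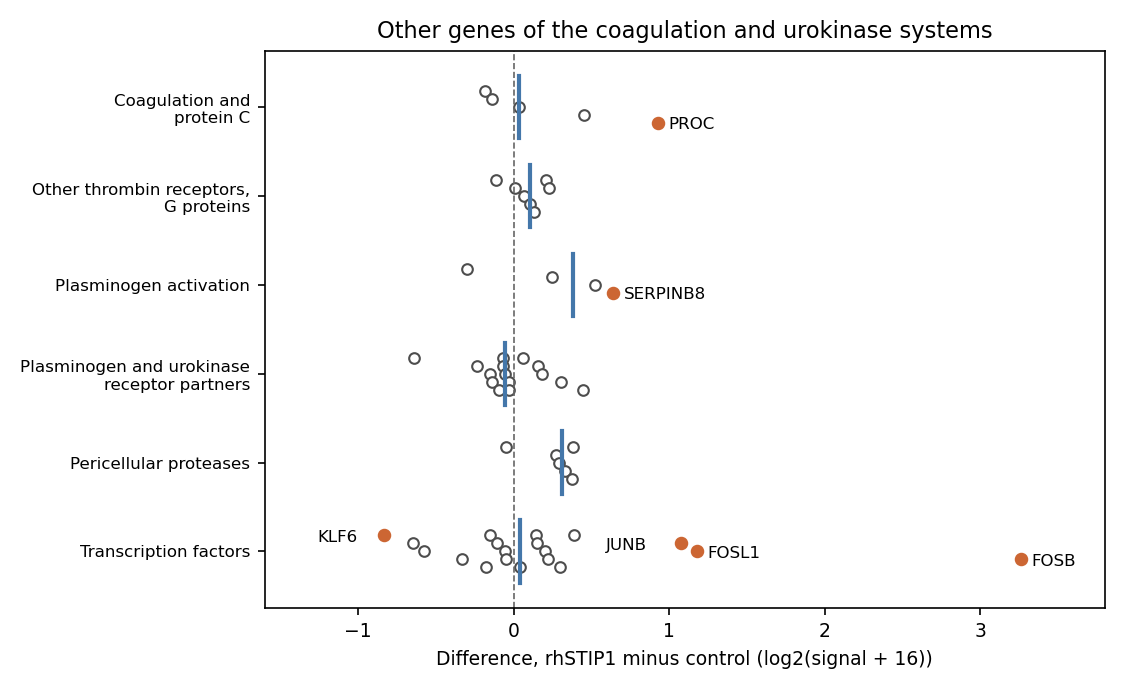
Difference between rhSTIP1 and control means of log2(signal + 16) for the tested genes of the 6 lists, 1 point a gene, spread vertically only for legibility. Filled orange points are separated by at least 1.5-fold and named, and blue bars are list medians, from −0.05 to 0.38. The 6 separated genes are PROC, SERPINB8, FOSB, JUNB, FOSL1 and KLF6.

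The genes whose pattern over the 4 arrays was most like that of THBD were found by the root mean square difference of log2(signal + 16) after each gene was centred on its mean. They were ACKR3 (0.20), ANHX (0.22), FAM43A (0.25), SIK1 (0.25) and ID2 (0.31). ACKR3, an atypical chemokine receptor, had signals of 34.1 and 47.3 in controls and of 242 and 159 with rhSTIP1. SIK1, a salt-inducible kinase, had 531 and 1176 in controls and 2496 and 2044 with rhSTIP1. Only 1 gene, ACKR3, lay within 0.2 of THBD. ANHX had 12.8 and 30.6 in controls and 184 and 158 with rhSTIP1. Both ACKR3 and ANHX were under the tested level in controls and reached it only through the rhSTIP1 arrays. Within 0.2 of PLAUR lay 325 genes. The closest were SLC12A8 (0.03), KIAA1217 (0.04), MOCS2-DT (0.05), ARHGEF12 (0.05) and SERTAD2 (0.06). SLC12A8 had 57.3 and 52.4 in controls and 87.7 and 96.7 with rhSTIP1, and it too reached the tested level only through the rhSTIP1 arrays. ARHGEF12, a guanine nucleotide exchange factor for RhoA, had signals of 5531 and 5245 in controls and of 7709 and 8304 with rhSTIP1. This measure depends on the size of a difference as well as its shape, and the log2 difference of PLAUR is smaller than that of THBD. Likeness over 4 arrays does not show that genes are regulated together.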

How the data were processed

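RNA from 4 SKOV3 samples, 2 control and 2 rhSTIP1, was measured on Affymetrix expression arrays. The deposited intensity values are linear MAS5 signals, for which the submitters' processing notes name Affymetrix Expression Console 1.1. The mean after trimming 2% at each end was 500.1 on every array, and the table holds no detection calls, so dim signals cannot be told from background. The genome build is not given in the sources used here. Of 54613 probe sets other than 62 controls, 41091 had 1 gene symbol in the annotation, 1801 several and 11721 none, and 41037 of the probe sets with 1 symbol had a gene identifier in the RefSeq table of GRCh38.p14.

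For each of 19775 genes the brightest probe set by mean signal was kept, and it was tested where its mean reached 69.4, the median over probe sets, which left 12296 genes. A second fit used all 27307 probe sets at that level. Groups were compared with limma 3.58.1 in R 4.3.3 (lmFit and trended eBayes) using log2(signal + 16). Tests were two-sided, and p-values were adjusted over all features by Benjamini-Hochberg. Differences on this scale understate the change of dim genes. With 2 arrays against 2, an exact permutation test cannot go below p = 0.333. The model was tested on simulated data. The number of arrays limits the precision.

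The genes, the 6 lists, the 5 marker lists, the motifs and the rule for named genes were chosen with earlier results of these data known. Named were all 9 genes, up to 4 separated genes a list by unadjusted p with PLAT and SERPINB2 in any case (SERPINB2, with no named probe set, was not analysed here), and the 5 genes most like THBD and PLAUR. PROS1, F2RL2, SERPINE2, ANXA2, ITGB1, ITGAV, FOS, FOSL2, JUN, JUND, KLF2, KLF4 and KLF5 were named after their values were seen. Alternatives covered the pseudocount, filter, scaling, probe sets, block, eBayes and leaving out each array. Protein sequences were not used here.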

Additional observations from a re-analysis of the deposited data

How the results depend on the processing

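The count of measured genes separated and higher, 3, was 4 with median centring and without control 1 or rhSTIP1 array 1, where F3 joined, and 2 where probe sets were averaged or those without the _s_at, _x_at and _a_at endings were preferred, where PLAUR dropped out. THBD and TFPI2 were separated and higher under all 15 alternatives, and the count of 0 lower held under each. PROCR was not tested with the filter at the 70th percentile. Over all genes, limma called 0, 1 with a filter at the 70th percentile, 2 with median centring, 2 with robust eBayes and from 0 to 6 with 1 array left out. The separated counts over all genes, 234 higher and 466 lower, were 150 higher with a pseudocount of 64, 855 and 1232 without a filter and 123 and 301 with the stricter filter, and ran from 408 to 945 higher and from 654 to 1034 lower with 1 array left out. Of the other genes of the system, 5 higher and 1 lower, there were 8 and 7 without a filter, 3 higher with the stricter filter and 3 lower with averaged probe sets, and from 5 to 11 higher and from 0 to 5 lower with 1 array left out. With 1 array left out fewer values need to be apart, and a group of 1 array is taken to vary as much as the other group.

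By the labels, control and rhSTIP1 arrays are linked only by a replicate number, and whether same-numbered arrays were prepared together is not stated. Deviations of same-numbered arrays from their group means correlated at 0.36 over the genes tested. With the replicate number as a block, limma called 247 genes and 4 of the other genes of the system, FOSB, JUNB, FOSL1 and KLF6. The differences of the measured genes did not depend on the block, and their p-values are not given.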
